A study of Mus musculus with 6 samples.

Results

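The transcription factor p53 (gene Trp53) and 9 of its direct target genes were followed in mouse primary uterine stromal cells with and without Pbrm1. The 10 genes were chosen by name, as Trp53, Mdm2, Cdkn1a, Ccng1, Bbc3, Bax, Sesn2, Phlda3, Zmat3 and Gadd45a. Each matched 1 of the 54232 genes of the RNA-seq count table. Pbrm1 encodes a bromodomain subunit of PBAF, a form of the SWI/SNF chromatin remodeler. Cells came from mice 8 to 12 weeks old on D4 of pseudopregnancy (the labels' time field says pregnancy), with 3 libraries labelled WT and 3 labelled Pbrm1 cKO, hereafter cKO. According to the study, the controls were Pbrm1 fl/fl mice and the cKO mice carried the same floxed alleles with a Cre driven from the progesterone receptor locus, so deletion was limited to cells that had expressed that receptor. Because Cre was present in 1 group, Cre and the loss of Pbrm1 cannot be told apart. Uterine horns of 5 to 10 per preparation were digested, and the cells were plated for 4 h and kept for 2 h more in fresh medium before RNA was taken. The study calls its replicates biological, and p-values measure the spread between these libraries.

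In most cells p53 protein is made and destroyed continuously, because the ubiquitin ligase Mdm2 marks it for degradation. DNA damage and other stresses stop this degradation, and p53 then binds DNA as a tetramer and switches on genes that halt the cell cycle, repair DNA or start apoptosis. Mdm2 is itself one of these genes, which closes a feedback loop. Activation happens mainly on the protein, so the level of Trp53 mRNA alone does not report p53 activity, and the target mRNAs are usually read for it.

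Total counts lay between 13253575 and 18338667 per library. Pbrm1, which checks the labels, had normalized counts (counts divided by the size factor of DESeq2) of 1354, 1385 and 1677 for WT against 397, 459 and 451 for cKO (replicates 1 to 3 in order, as throughout), or 29.6% of the WT mean. The stromal markers Vim, Pdgfra and Col1a1 were abundant in every library, with normalized counts of at least 13916, which fits the label. By vimentin and cytokeratin staining the study found its isolated cells strongly enriched for stroma, though not pure. RNA markers of other cell types were counted here too. Summed leukocyte markers (16 genes, CPM, counts scaled to library size) were 299, 645 and 623 in WT and 2543 to 2674 in cKO, a 4.96-fold difference, with 13 of the 14 markers tested higher in cKO by DESeq2 (15.9% of all genes tested were higher and 15.2% lower). Summed epithelial markers were 137, 249 and 236 in WT and 269 to 285 in cKO, endothelial markers 228, 472 and 473 in WT and 211 to 247 in cKO, smooth muscle markers 3848 to 4168 in WT and 3682 to 3817 in cKO, and stromal markers 8001 to 9108 in WT and 6306 to 6675 in cKO. By gene, 4 of 13 epithelial markers tested were higher, 1 of 12 endothelial markers was higher and 3 were lower, 5 of 11 smooth muscle markers were lower, and 1 of 14 stromal markers was higher and 7 were lower. In the leukocyte, epithelial and endothelial sums WT replicate 1 stood apart from the other WT libraries. In bulk RNA, more cells of a type and more RNA per cell cannot be told apart, and the part of these cell types in the results on p53 genes was not tested.

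p53 recognises a pair of copies of a short decamer, the p53 half-site. Upstream windows of 250 bases were read from RefSeq promoters (GRCm38.p6) for 9 of the 10 genes, with no entry for Zmat3, and 12 windows were found in all, since Cdkn1a and Bbc3 have several starts. The decamer is its own reverse complement, so 1 search covers both strands. At least 1 exact decamer stood in 6 of the 12 windows (Trp53, Mdm2, Cdkn1a, Ccng1, Bax and Gadd45a), against 7.13% of all 32851 windows. A pair of decamers with at most 1 mismatch in total and a gap of 0 to 13 bases stood in 3 windows, those of Cdkn1a, Ccng1 and Bax, against 0.898% of all windows. The limits on mismatches and gap were chosen after the sequences of these genes had been seen, so the shares describe them and test nothing. The 3 windows are shown 5′ to 3′ on the strand of the gene, ending 1 base before the start of transcription, because they let the measured levels of the genes be set beside the sites. Capitals mark every decamer that takes part in such a pair.
Cdkn1a, chr17:29090729-29090978, plus strand: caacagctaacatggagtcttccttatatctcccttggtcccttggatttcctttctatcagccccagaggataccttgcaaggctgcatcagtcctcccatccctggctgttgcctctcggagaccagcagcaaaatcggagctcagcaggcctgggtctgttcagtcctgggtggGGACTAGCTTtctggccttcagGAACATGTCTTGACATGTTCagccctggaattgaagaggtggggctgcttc
Ccng1, chr11:40755287-40755536, minus strand: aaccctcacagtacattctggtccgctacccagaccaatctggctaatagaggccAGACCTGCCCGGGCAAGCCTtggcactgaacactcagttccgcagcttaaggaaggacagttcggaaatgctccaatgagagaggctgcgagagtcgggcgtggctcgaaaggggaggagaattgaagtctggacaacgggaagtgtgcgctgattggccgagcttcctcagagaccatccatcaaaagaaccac
Bax, chr7:45466899-45467148, minus strand: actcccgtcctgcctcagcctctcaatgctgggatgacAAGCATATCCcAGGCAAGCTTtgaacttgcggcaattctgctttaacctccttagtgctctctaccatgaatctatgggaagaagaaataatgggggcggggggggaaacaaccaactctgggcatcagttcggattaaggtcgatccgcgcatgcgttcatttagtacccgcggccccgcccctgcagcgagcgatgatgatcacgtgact
In Cdkn1a, 2 decamers with no gap and 1 mismatch begin 51 bases before this start, and an exact pair with a gap of 12 bases begins 73 bases before it. The pair in Ccng1 begins 195 bases before the start with no gap and 1 mismatch, and the pair in Bax begins 212 bases before it with a gap of 1 base and 1 mismatch. The second Cdkn1a window, chr17:29093519-29093768, and the windows of Bbc3, Sesn2 and Phlda3 held no exact decamer, which says only that these letters are absent from these bases. Of the 3 genes shown, Cdkn1a passed the test between the groups and Ccng1 and Bax did not, as given gene by gene below.

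Only 1 of the 10 genes, Cdkn1a, differed between the groups at an adjusted p under 0.05 (DESeq2, adjusted over the 17474 genes tested). It was higher in cKO. Over all genes tested 31.1% passed this threshold, 15.9% as higher and 15.2% as lower, so the p53 genes passed no more often than the background. No p53 gene passed as lower, although 1 (Phlda3) had an unadjusted p under 0.05 in that direction and 1 was called lower by edgeR and by limma voom. Groups did not overlap for 4 of the 10 genes (Mdm2, Cdkn1a and Bbc3 higher, Phlda3 lower), against 48.6% of all genes tested. The median log2 fold change (cKO over WT) of the 10 genes was 0.15, against a median near 0 over all genes tested.

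**Figure D1:**
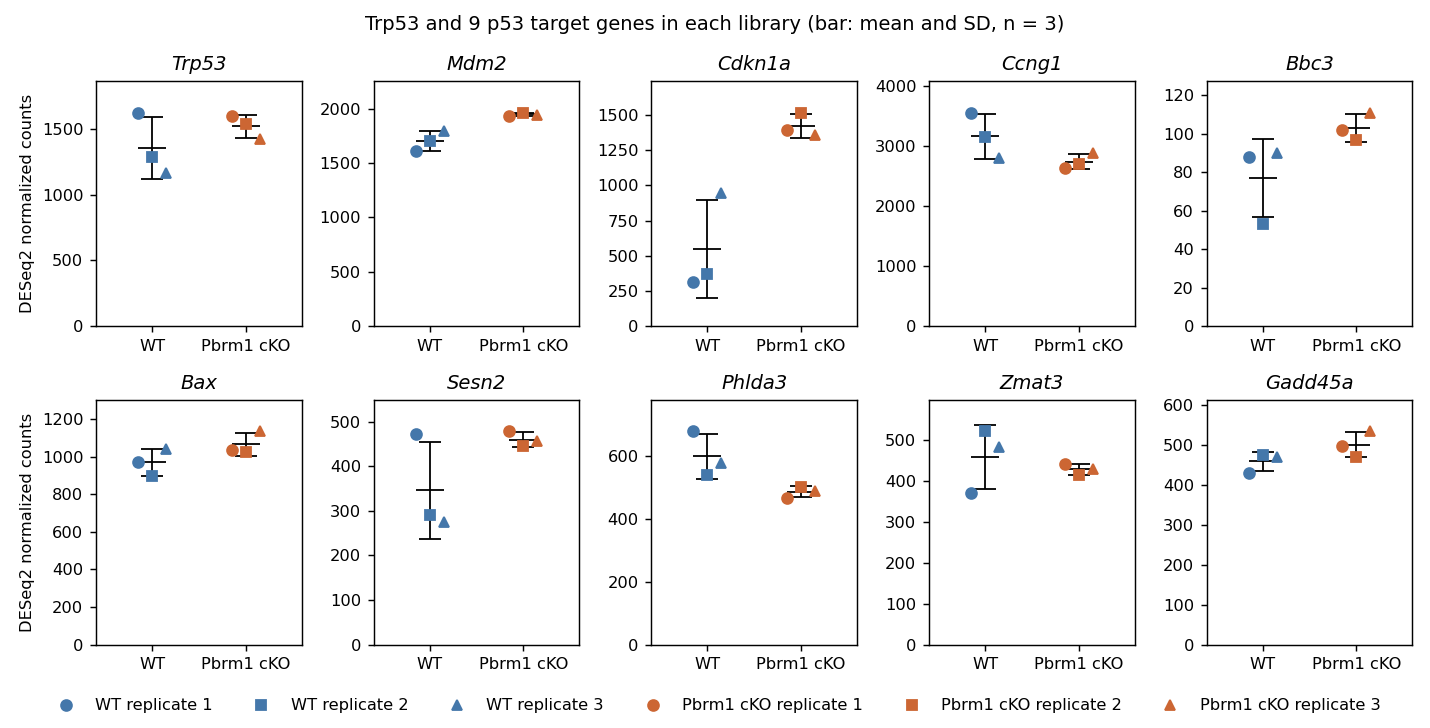
DESeq2 normalized counts of Trp53 and 9 target genes in each of the 6 libraries, with points for libraries and black bars for the mean and SD (n = 3 per group); every axis starts at 0. Cdkn1a lies between 315 and 947 in WT and between 1356 and 1515 in cKO, the only gene of the 10 that passed the test.

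Trp53 itself (chr11:69580359-69591873, GRCm38) had normalized counts of 1626, 1289 and 1171 in WT and 1602, 1545 and 1427 in cKO. The groups overlapped, because WT replicate 1 was as high as the cKO libraries while the other WT libraries were below all of them. The mean was 1362 ± 236 in WT and 1525 ± 89.2 in cKO (SD, n = 3 each), with a log2 fold change of 0.16 ± 0.14 (SE), a 95% interval of -0.10 to 0.43 and an adjusted p of 0.409. Without WT replicate 1 the value was 0.31 (adjusted p 0.00899), and without WT replicate 3 it was 0.06 (adjusted p 0.774). The processed pseudogene Trp53-ps took 6 to 16 counts per library, against at least 1083 for Trp53.

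Mdm2 (chr10:117688875-117710758), the ligase that degrades p53 and a p53 target, had 1613, 1701 and 1792 in WT and 1938, 1962 and 1946 in cKO. All cKO libraries were above all WT libraries, by a small margin. The log2 fold change was 0.20 ± 0.09 with an adjusted p of 0.0807, which missed the threshold. Leaving out WT replicate 3, the highest WT library, gave 0.23 with an adjusted p of 0.0243.

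Cdkn1a (chr17:29090979-29100722) encodes p21, the cyclin-dependent kinase inhibitor through which p53 halts the cell cycle. Its normalized counts were 315, 373 and 947 in WT and 1397, 1515 and 1356 in cKO. The cKO libraries were all above the WT libraries and close to each other, while WT replicate 3 stood well above the other WT libraries. The mean was 545 ± 349 in WT and 1423 ± 82.6 in cKO, a log2 fold change of 1.38 ± 0.50 with a 95% interval of 0.41 to 2.36 and an adjusted p of 0.0212. By edgeR the adjusted p was 0.011 and by limma voom with weights per group 0.000417.

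The size of the Cdkn1a difference depends on WT replicate 3. Without that library the log2 fold change was 2.05 with an adjusted p of 4.16e-57. Leaving out any of the other 5 libraries left the direction in place and ended the call, with log2 fold changes of 1.11 to 1.42 and adjusted p of 0.0535 (without WT replicate 1), 0.113 (WT replicate 2), 0.0953 (cKO replicate 1), 0.117 (cKO replicate 2) and 0.0833 (cKO replicate 3). A test against a 1.5-fold change gave an adjusted p of 0.92. In WT replicate 3 Cdkn1a was 2.75 times the mean of the other WT libraries, a ratio reached by 14 of the 10985 genes whose normalized counts averaged 50 or more, a description chosen after the values were seen.

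**Figure D2:**
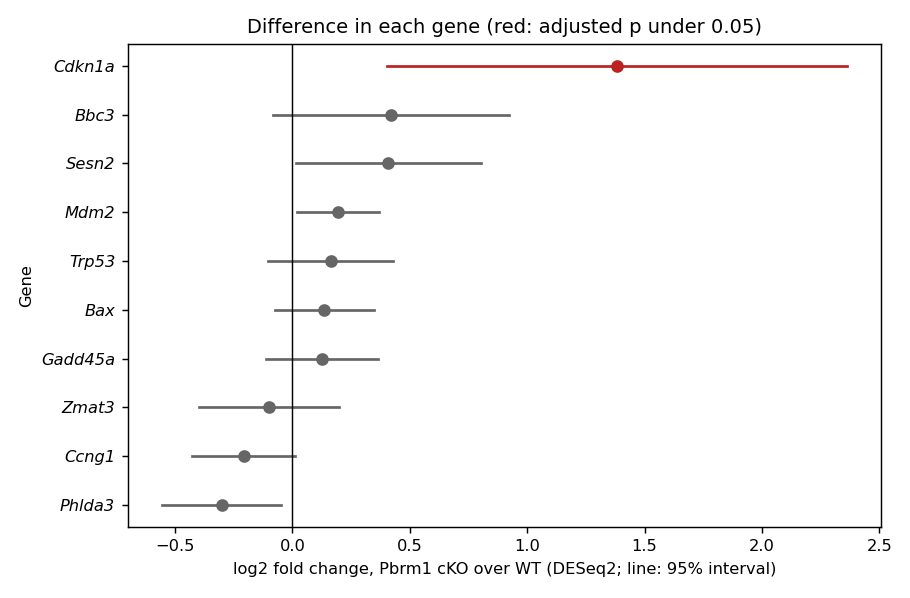
Log2 fold change of each of the 10 genes, cKO over WT (DESeq2), with 95% intervals, ordered by value; red marks an adjusted p under 0.05. Cdkn1a at 1.38 is the only gene in red and has the widest interval, and the other 9 lie between -0.30 and 0.42.

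Gadd45a (chr6:67035096-67037457), a growth arrest and DNA damage response gene, had 431, 476 and 469 in WT and 497, 471 and 534 in cKO. The groups overlapped, and the log2 fold change was 0.13 ± 0.12 with an adjusted p of 0.495 (0.08 without WT replicate 1 or without cKO replicate 3, and 0.21 with the trend with gene length removed, none of which passed). Ccng1 (chr11:40748552-40755311), which encodes cyclin G1, was the most abundant of the 10 genes. Its normalized counts were 3543, 3139 and 2794 in WT and 2626, 2698 and 2879.6 in cKO. The highest cKO library lay above the lowest WT library, and the log2 fold change was -0.21 ± 0.11 with an adjusted p of 0.152. Without WT replicate 3 it was -0.29 with an adjusted p of 0.00871, and without WT replicate 1 it was -0.12 with an adjusted p of 0.344.

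Both genes of the mitochondrial route to apoptosis missed the threshold. Bbc3 (chr7:16308393-16318205), which encodes the BH3-only protein PUMA, had 87.6, 53.3 and 89.7 in WT and 102, 96.7 and 111 in cKO. It was the least abundant of the 10 genes by count, with 48 reads in WT replicate 2, and although the groups did not overlap the log2 fold change of 0.42 ± 0.26 had an adjusted p of 0.223. Without WT replicate 2 it was 0.21 with an adjusted p of 0.615. Bax (chr7:45461697-45466898), a pore-forming effector of apoptosis, had 973, 897 and 1038 in WT and 1034, 1026 and 1133 in cKO. WT replicate 3 lay within the cKO range, and the log2 fold change was 0.14 ± 0.11 with an adjusted p of 0.382. It was 0.08 (adjusted p 0.706) without WT replicate 2 and 0.24 (adjusted p 0.0508) with the trend with gene length removed.

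Phlda3 (chr1:135766119-135769136), a PH-domain protein that restrains Akt signaling, pointed the other way. Its normalized counts were 678, 540.5 and 578 in WT and 467, 503 and 489 in cKO, with every cKO library below every WT library. The log2 fold change was -0.30 ± 0.13 with an adjusted p of 0.0619. It passed under 4 of 14 alternatives, with an adjusted p of 0.0492 by edgeR, 0.0388 by limma voom, 0.0497 by DESeq2 after removal of low genes and 0.0369 without WT replicate 2. The other 10 did not pass, among them the fits without each of the other 5 libraries (adjusted p 0.0642 to 0.243) and the fit with the trend with gene length removed (-0.19, adjusted p 0.289).

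Sesn2 (chr4:132492032-132510501), a stress-induced inhibitor of mTORC1 that p53 and ATF4 both switch on, had 472, 292 and 275 in WT and 479, 446 and 456 in cKO. As for Trp53, WT replicate 1 was at the level of the cKO libraries and the other WT libraries were below them. The log2 fold change was 0.41 ± 0.20 with an adjusted p of 0.109. It was 0.70 with an adjusted p of 4.93e-06 without WT replicate 1, and limma voom with weights per group gave an adjusted p of 0.0343 with all libraries. Without WT replicate 3 it was 0.26 (adjusted p 0.348), and without WT replicate 2 it was 0.30 (adjusted p 0.367). Zmat3 (chr3:32334792-32366014), a zinc-finger protein that binds RNA, had 369.8, 521 and 483 in WT and 441, 413 and 429 in cKO, with cKO inside the WT range. Its log2 fold change was -0.10 ± 0.15 with an adjusted p of 0.699. It lay between -0.23 (without WT replicate 1) and about 0 (without WT replicate 2) when 1 library was left out, was -0.26 with the length trend removed, and never passed.

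**Figure D3:**
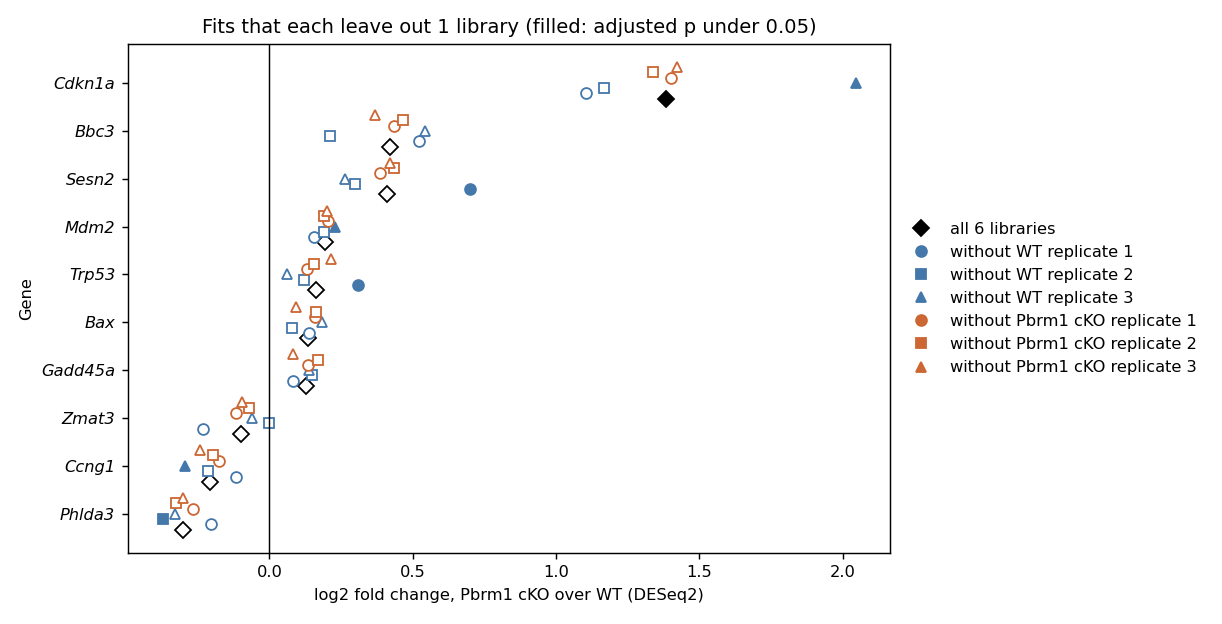
Log2 fold change of the 10 genes with all 6 libraries (black diamonds) and with each library left out in turn (blue for WT, orange for cKO; circle, square and triangle for replicates 1, 2 and 3); filled symbols have an adjusted p under 0.05. The largest moves come when a WT library is left out, to 2.05 for Cdkn1a without replicate 3 and to 0.70 for Sesn2 without replicate 1.

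Libraries of the WT group spread more than those of the cKO group. The coefficient of variation was larger in WT for 9 of the 10 genes, all but Gadd45a, and its median over the 10 genes was 14.5% in WT and 5.20% in cKO. The same held for 71.0% of all genes tested, with medians of 15.98% and 8.53%. No single WT library was the highest, or the lowest, for most of the p53 genes. WT replicate 1 was the highest WT library for 4 genes and the lowest for 4, WT replicate 2 the highest for 2 and the lowest for 3, and WT replicate 3 the highest for 4 and the lowest for 3.

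Levels were compared between genes as normalized counts per kilobase of exon. In WT the order was Ccng1 (899 ± 107), Bax (615 ± 44.8), Phlda3 (384 ± 45.4), Trp53 (337 ± 58.4), Mdm2 (335 ± 17.6), Gadd45a (260.01 ± 13.8), Cdkn1a (245 ± 157), Sesn2 (99.7 ± 31.5), Zmat3 (40.04 ± 6.86) and Bbc3 (36.2 ± 9.64). The ranges over libraries overlapped between Phlda3 and Trp53, Trp53 and Mdm2, Gadd45a and Cdkn1a, and Zmat3 and Bbc3, and other neighbours were apart. In cKO Cdkn1a ranked below Ccng1 and Bax at 639.9 ± 37.2 per kilobase, with a range that overlapped that of Bax above it (675 ± 38.0) and lay apart from that of Mdm2 below it (383 ± 2.39). Ccng1 was the highest of the 10 in both groups. Bax and Sesn2 each overlap a gene on the same strand, and reads that fall in both genes of such a pair are assigned to neither by the counting program's defaults, so their levels may be understated by an amount that was not measured.

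Other p53 targets were described from a list of 32 genes. In all, 7 were higher and 3 lower in cKO (31.25%, against 31.1% of all genes tested), with a median log2 fold change of 0.13. Among 6 targets that act on the cell cycle, 4 were higher (against 15.9% of all genes tested) and none lower by DESeq2, edgeR or limma voom, with 1 lower at an unadjusted p under 0.05. Sfn, which encodes 14-3-3 sigma and holds cells before mitosis, rose from 35.9 ± 9.15 to 77.3 ± 9.46 (log2 fold change 1.11, adjusted p 0.00156). Sfn is best known from epithelia, and the summed epithelial markers were also above the WT range in every cKO library, a part that was not tested. The polo-like kinase genes Plk2 (0.38, adjusted p 2.81e-06) and Plk3 (0.40, adjusted p 0.0338) rose as well, and Plk3 lost its call without any 1 of WT replicates 2 and 3 and cKO replicates 1 to 3 (adjusted p 0.0787 to 0.19). The remaining gene of the 4 was Btg2, an antiproliferative gene named after its values were seen (0.33, adjusted p 0.0162).

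Among 11 targets of cell death, 1 was lower (9.09% called, against 31.1% of all genes tested) and none higher by DESeq2 or edgeR, although 3 were higher at an unadjusted p under 0.05 by DESeq2 and 3 were called higher by limma voom. The lower gene was Eda2r, a receptor of the TNF receptor family, which fell from 293 ± 38.2 to 203 ± 8.40 (-0.53, adjusted p 0.00474), and which had an adjusted p of 0.0513 without cKO replicate 1. Of 5 DNA repair targets 1 was called (20%, against 31.1% of all genes tested). This was Rrm2b, a ribonucleotide reductase subunit, which rose (0.44, adjusted p 0.0101). Its adjusted p was 0.069 and 0.0667 without cKO replicates 1 and 2, and 0.0953 when the trend with gene length was removed. None of the 5 fell by DESeq2, edgeR or limma voom, and none had an unadjusted p under 0.05 in that direction.

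Of 10 targets with other roles, 2 rose and 2 fell, against 15.9% and 15.2% of all genes tested. Ddit4, a stress-induced inhibitor of mTORC1, had 211, 199 and 379 in WT and 516, 489.8 and 484 in cKO (0.92, adjusted p 0.000291). Ninj1, a membrane protein of nerve injury and lytic cell death, had 449.99, 486 and 654 in WT and 909.6, 856 and 955 in cKO (0.77, adjusted p 4.46e-06). In both genes WT replicate 3 was the highest WT library, as for Cdkn1a, and the groups did not overlap. It was the highest WT library for 12 of the 32 other targets in all. In WT replicate 3 Ddit4 was 1.85 and Ninj1 1.40 times the mean of the other WT libraries. Of 10985 genes whose normalized counts averaged 50 or more, 159 and 840 reached these ratios. Ak1, an adenylate kinase, fell from 5420.2 ± 1672 to 2803 ± 155 (-0.95, adjusted p 1.39e-06). Ephx1, an epoxide hydrolase, fell from 66.8 ± 17.4 to 36.3 ± 1.56 (-0.88, adjusted p 0.0193), and its adjusted p was 0.0513 to 0.162 without any 1 library other than WT replicate 3. Over the 32 genes, 4 were called higher without cKO replicate 1 and 4 without cKO replicate 2, while 5 were called lower without WT replicate 3 and 1 without cKO replicate 1. Over all genes, 1973 and 1923 were called higher without cKO replicates 1 and 2, against 2774 with all libraries. Those called lower were 2581 without WT replicate 3 and 1815 without cKO replicate 1, against 2658 with all libraries.

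**Figure D4:**
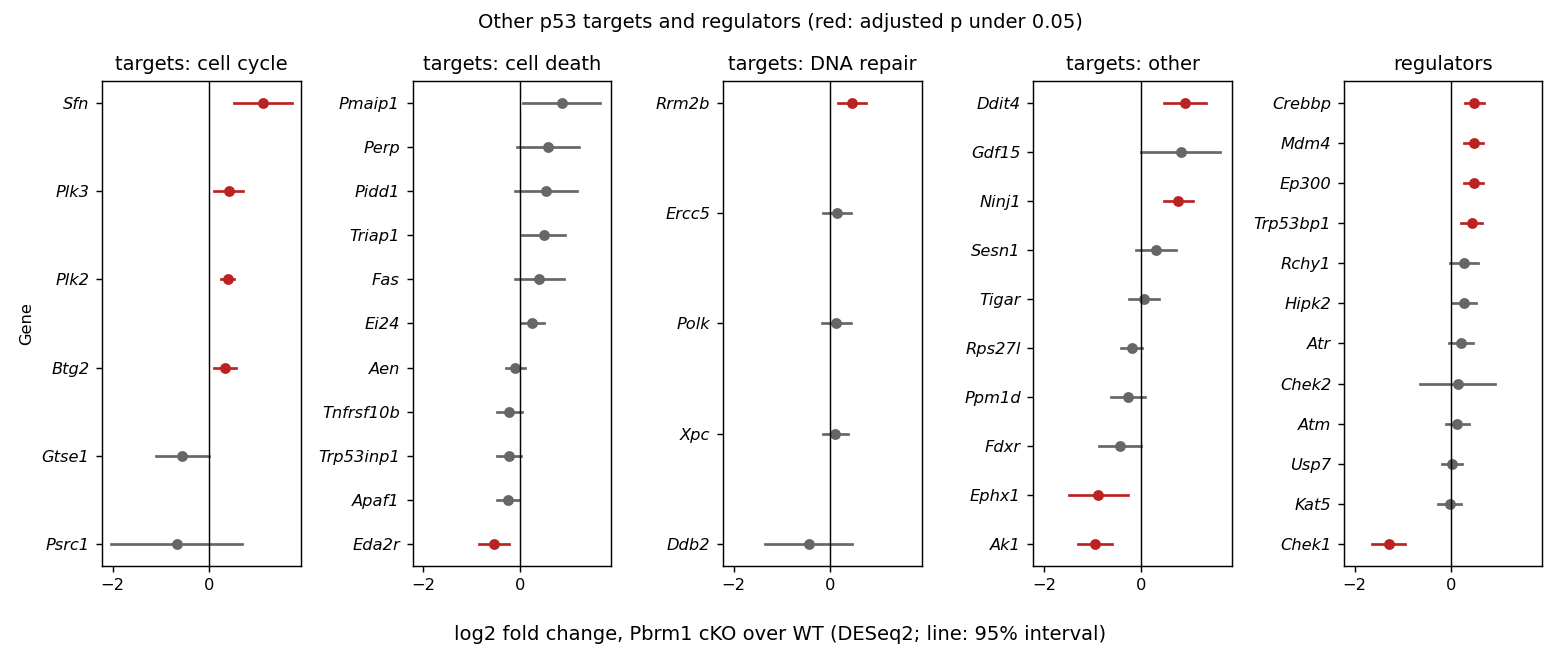
Log2 fold change (cKO over WT, DESeq2) with 95% intervals for the 32 other p53 targets, split by role, and for 12 regulators of p53 with counts above the floor in both groups; red marks an adjusted p under 0.05. Red genes lie on both sides of 0, from -1.30 for Chek1 to 1.11 for Sfn.

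Regulators of p53 were described from a list of 15 genes, of which 13 were tested. In cKO, 5 were higher and 1 was lower, against 15.9% and 15.2% of all genes tested, and edgeR and limma voom each called 4 higher. Mdm4, which binds p53 and blocks its activation domain, had 723, 697 and 708 in WT and 1024, 944 and 972 in cKO, with every cKO library above every WT library (0.47, adjusted p 3.02e-05). The acetyltransferases and p53 coactivators Ep300 (0.46, adjusted p 3.32e-05) and Crebbp (0.48, adjusted p 2.95e-05) also rose. With the trend with gene length removed the values were 0.27 for Mdm4 (adjusted p 0.022), 0.27 for Ep300 (0.0194) and 0.29 for Crebbp (0.0136). Trp53bp1, a DNA break adaptor named after its values were seen, rose by 0.42 with an adjusted p of 0.00129. The fifth gene was the p53 relative Trp63, also named after its values were seen, which entered the test only through its counts in cKO, with raw counts of 0, 0 and 1 (WT) against 12, 10 and 6 (cKO), at least 2.60-fold higher when WT is set to 3 counts per library. Atm, the kinase that signals DNA breaks to p53, had an adjusted p of 0.49, and its log2 fold change of 0.13 turned to -0.02 when the trend with gene length was removed. Cdkn2a, whose ARF product inhibits Mdm2, had at most 2 counts in any library, so no fold is given.

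Chek1, the checkpoint kinase of replication stress, was the regulator that fell, from 230.4 ± 12.5 to 94.0 ± 3.90 (-1.30, adjusted p 4.63e-12). It kept its call without each library in turn. Chek1 is also a gene of dividing cells, and cell-cycle genes fell with it. Of 12 genes that the DREAM repressor complex, which acts downstream of p21, controls, 10 were lower in cKO by DESeq2, against 15.2% of all genes tested, and 11 by edgeR and by limma voom. None was higher by any of the 3 tools or at an unadjusted p under 0.05, and the median log2 fold change was -1.28. Cdk1, the kinase of mitotic entry, had 157, 205 and 181 in WT and 37.5, 23.2 and 23.5 in cKO (-2.70, adjusted p 3.31e-22). The cyclin genes Ccna2 (-2.15, adjusted p 2.14e-10) and Ccnb1 (-2.43, adjusted p 0.000247) fell too. The study reports less stromal proliferation in cKO uteri on D4. What part Cdkn1a, cell division or the mix of cell types had in these falls was not tested.

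Of 11 Bcl2-family genes other than Bax and Bbc3, 1 was higher and 1 lower in cKO by DESeq2 (18.2% called, against 31.1% of all genes tested). The counts were the same by edgeR, and limma voom called 3 higher and 1 lower. By DESeq2, 4 were higher and 1 lower at an unadjusted p under 0.05. Bcl2l11, which encodes the BH3-only protein BIM, had 105, 162 and 149 in WT and 243, 264 and 277 in cKO (0.92, adjusted p 2.29e-05). Bcl2l1, which encodes the survival protein BCL-xL, had 3637, 2468 and 2396 in WT and 2019, 2014 and 1889.7 in cKO (-0.52, adjusted p 0.00449; -0.30 and 0.00213 without WT replicate 1). For both genes WT replicate 1 stood apart from the other WT libraries on the side away from cKO, and the groups did not overlap.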

How the data were processed

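Per the labels and the study's methods, the authors trimmed reads with cutadapt, mapped them to GRCm38 with HISAT2 and counted them per gene of GENCODE mouse release 18 with featureCounts 1.6.4 by strand. The deposited values are raw counts of 6 libraries. The labels name a total RNA kit with transcript depletion and the study's methods poly(A) selection, which is not settled here. The test between groups was the Wald test of DESeq2 1.42.0 (R 4.3.3) without covariates, with Benjamini-Hochberg adjustment over all genes tested and a threshold of 0.05. Alternatives were edgeR 4.0.16, limma voom 3.58.1, other scaling, filtering, thinning and omitted libraries. A gene at no more than 3 counts in every library of a group was taken as at the floor, for counting error only. Symbols came from GENCODE release 21, promoters from RefSeq. The pipeline was tested on simulated data. The 10 genes, the other lists and the tests were chosen with earlier results of these data known. Named were the 10 genes, Pbrm1, Mdm4, Atm, Cdkn2a, defining cell type markers, and in each other list up to 3 called genes per direction whose normalized counts averaged 10 or more; others are marked as chosen after their values were seen.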

Additional observations from a re-analysis of the deposited data

How the results depend on the processing

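Over all genes, 2774 were called higher and 2658 lower. A test against a 1.5-fold change at adjusted p under 0.1 gave 692 and 559, and called 0 of the 10 p53 genes higher or lower (0 at an unadjusted p under 0.05), 0 of the 32 other targets higher (0 unadjusted) or lower (1 unadjusted) and 0 of the regulators higher (1 unadjusted) and 1, Chek1, lower. Of the 10 p53 genes, limma voom called 2 higher, and edgeR, limma voom and DESeq2 after removal of low genes each called 1 lower. Leaving out 1 library at a time gave 0 to 2 p53 genes called higher and 0 to 1 lower, 4 to 9 other targets higher and 1 to 5 lower, and over all genes 1923 to 2915 higher and 1790 to 2660 lower. The sign of Atm turned, to -0.018, when the trend with gene length was removed. Over 37 named genes and 518 repeated values, 444 kept both direction and side of the threshold, 64 lost the call, 9 gained it and 1 turned; the causes were not tested. Replicate numbers did not pair the samples, since the deviations of same-numbered libraries correlated at r = 0.114, -0.0515 and 0.0028 across 10986 genes, and not every library correlated best with its own number. A replicate block left Cdkn1a called, moved the other targets called higher from 7 to 5 and those called lower from 3 to 1, and among named genes ended the calls of Plk3 (adjusted p 0.0573), Rrm2b (0.0717), Eda2r (0.0506), Ephx1 (0.115) and Cdkn1c (0.164); over all genes it gave 2175 higher and 1828 lower. Of the 10 p53 genes Bbc3 had the fewest counts, 48 to 121 per library, and so the largest counting error.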

Other observations

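Genes of the ATF4 stress response, which shares targets such as Sesn2 and Ddit4 with p53, moved in both directions, with 3 of 10 higher and 2 lower in cKO, against 15.9% and 15.2% of all genes tested, and a median log2 fold change of 0.06. Atf3, a stress-induced transcription factor, had 192, 274 and 232 normalized counts in WT and 602, 603 and 617 in cKO (log2 fold change 1.38, DESeq2 adjusted p 1.95e-18). Slc7a11, the cystine transporter that p53 represses, rose by 0.53 (adjusted p 0.00197), and missed the threshold when the trend with gene length was removed (0.34, adjusted p 0.0679). Trib3, a pseudokinase of the same response, rose by 0.81 (adjusted p 0.0197), and without WT replicates 2 or 3 or cKO replicates 1 or 2 its adjusted p was 0.0543 to 0.141 (log2 fold change 0.54 without WT replicate 2). Phgdh, the entry enzyme of serine synthesis, changed by -1.01 (adjusted p 6.51e-12), and Atf5 by -0.47 (adjusted p 0.0273). When 1 library was left out, Atf5 kept its call without WT replicate 2 and lost it without each of the other 5 (adjusted p 0.0593 to 0.132; log2 fold change -0.28 without WT replicate 1). Its adjusted p was 0.0573 by edgeR and 0.0753 when the trend with gene length was removed.

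Relatives of the p53 target genes, 10 listed and 9 tested, had 1 gene higher and 1 lower (22.2% called, against 31.1% of all genes tested). Phlda1 had 1532, 1522 and 1571 in WT and 2076, 2264 and 1963 in cKO (0.45, adjusted p 2.78e-05), whereas its relative Phlda3 was lower in every cKO library. Cdkn1c, which encodes the kinase inhibitor p57, changed by -0.75 (adjusted p 0.0349), and its adjusted p was 0.0585 to 0.16 when a library was left out, 0.057 when the trend with gene length was removed and 0.0516 after the counts were thinned to the total of the shallowest library. Its relative Cdkn1a was higher in every cKO library.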
